A study of Mus musculus with 48 samples.

Results

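The frontal cortex of wild-type (WT) mice was compared between postnatal week (PWK) 7 and PWK 1, with 4 mice at each age. These are 8 of the 48 libraries of the series, which holds 12 groups formed by cortex and hippocampus, WT and *Cyfip2*+/- (heterozygous, HT) mice, and PWK 1, 7 and 14. The 8 libraries were chosen by the tissue, genotype and age given in the sample records, and no measured value was used. All mice were of the C57BL/6N strain and WT mice were littermates of the HT mice. The WT mice carry no engineered allele and no treatment is recorded for them, so age is the only labelled difference between the 2 groups. Cortex of both hemispheres of a mouse made 1 library, and the hippocampus of the same mouse made another. Each library is a different mouse, so the comparison is between mice of 2 ages and follows no animal over time.

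Between these ages the rodent cortex passes from a late phase of construction to an adult-like state. In the first postnatal week most cortical neurons have arrived in their layers and extend axons and dendrites, the last divisions are mainly of glial precursors, and the pup lives on fat-rich milk. Oligodendrocytes then wrap axons in myelin, synapses form and are selected, receptor and channel subunits are exchanged for adult ones, and fast-spiking interneurons that contain parvalbumin acquire their mature output and are enclosed by perineuronal nets. Weaning replaces milk by a diet rich in carbohydrate.

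RNA was sequenced in bulk, so a lower value can mean fewer cells of a type or less RNA in each cell, and these cannot be told apart. Values are normalized counts, that is, estimated reads per gene after scaling between libraries. Totals were 31.6 M to 32.2 M per library at PWK 1 and 33.1 M to 33.7 M at PWK 7. Log2 values of 2 libraries correlated by 0.987 to 0.991 (Pearson, across genes, which are not independent) within an age and by 0.949 to 0.963 between ages. Markers of the labelled tissue were present throughout, with *Slc17a7*, the vesicular glutamate transporter of cortical excitatory neurons, at 40336, 44341, 33822 and 37064 in the 4 mice of PWK 1 and at 47824, 44226, 47089 and 46609 in those of PWK 7. A list of 4 Y-linked genes, chosen after seeing the data, summed to 3851 to 4915 over the 8 libraries, for which the sample records give no sex.

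Several libraries stood apart from the others of their age. Replicate 3 of PWK 1 contained RNA typical of the olfactory bulb: a list of olfactory bulb genes, chosen after seeing the data, summed to 5090.0 there and to 1402 to 1740.2 in the other 3 libraries of that age. It was also high in genes of striatal neurons, which summed to 12659 against 6852 to 8298. At PWK 7 the striatal genes summed to 12772 and 13829 in replicates 2 and 4 and to 10361 and 9819.8 in replicates 1 and 3. The PWK 1 mice also differed in how far their profile lay towards that of PWK 7. On a scale set by the HT cortex, with the mean of the HT mice at 0 for PWK 1 and at 1 for PWK 7, the WT libraries of PWK 1 lay at 0.165, 0.244, 0.117 and 0.085 for replicates 1 to 4, over 10691 genes. The WT libraries of PWK 7 were closer together, between 0.973 and 0.997. The HT libraries of PWK 1, which set the 0, lay between -0.054 and 0.065. Replicate 2 lay nearest to PWK 7 among the WT libraries of PWK 1. Its myelin genes summed to 94466 against 51352 to 61984 in the other 3, and the reason was not tested. Below, values without replicate 2 or 3 of PWK 1 are given beside several genes that stood far apart there.

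Most of the measured genes changed (59.0%), in nearly equal numbers up and down. Of 16839 genes tested, 4879 (29.0%) were higher and 5055 (30.0%) were lower at PWK 7, at a Benjamini-Hochberg adjusted p below 0.05 from limma on log2(normalized count + 1). Fold changes below are on that scale unless said otherwise, which understates the change of low genes. Most changes were modest, with a median size of 0.51 among the genes called. At least 2-fold changes were made by 1163 genes upwards (6.91% of those tested) and 987 downwards (5.86%), and at least 8-fold changes by 80 and 44. The 4 values of one age lay wholly above or below those of the other in 9058 genes, 26.3% higher and 27.5% lower at PWK 7. The median log2 fold change of all genes tested was 0.001. By gene type, 4219 protein-coding genes rose and 4776 fell of 14709, whereas 170 long intergenic noncoding RNAs rose and 93 fell of 520. Among RNAs antisense to a gene, 131 rose and 51 fell of 410.

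**Figure D1:**
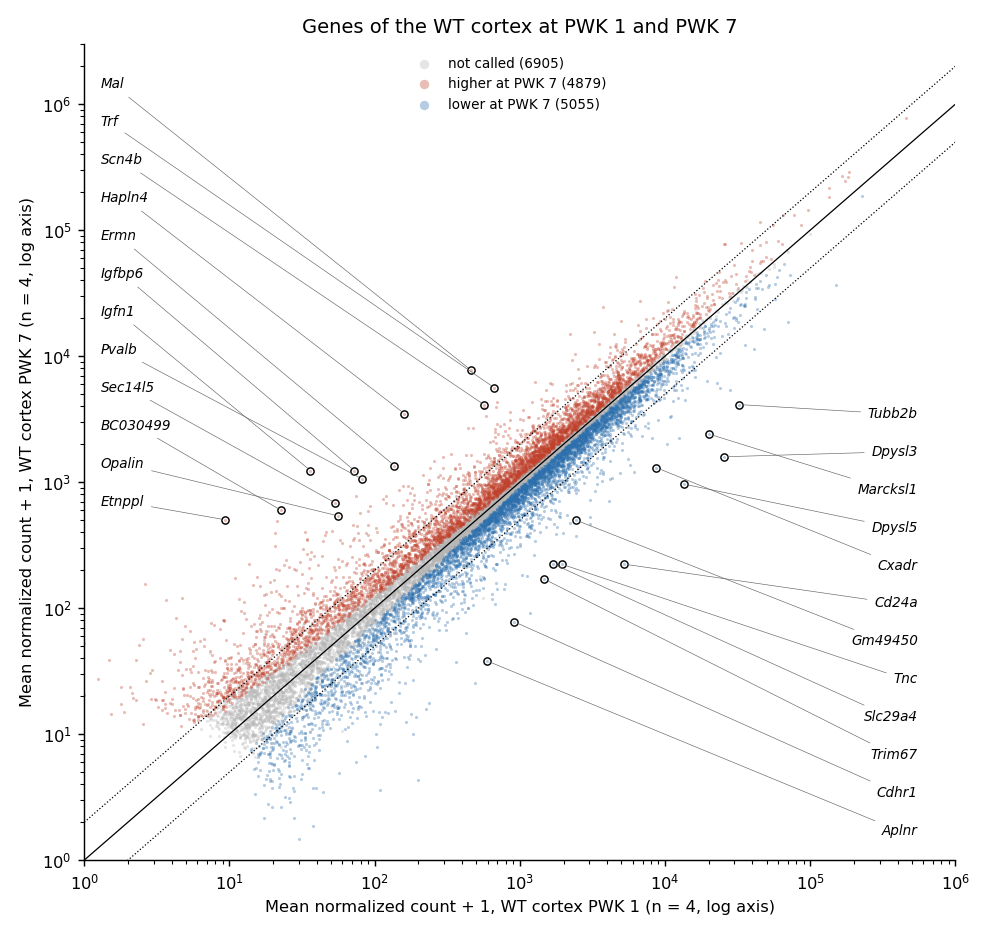
Mean normalized count plus 1 of each of the 16839 genes tested in the WT cortex, at PWK 1 (horizontal) and PWK 7 (vertical), both on log axes, with n = 4 mice each. Points are coloured by the call, the solid line marks equal levels, dotted lines mark 2-fold changes, and circles mark the 12 protein-coding genes with the largest rise and the 12 with the largest fall among those with a mean of at least 500 at the higher age.

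The largest rises among well-expressed protein-coding genes included genes of glia, of parvalbumin interneurons and of the extracellular matrix. Positions are those of the gene on GRCm38. *Etnppl* (chromosome 3, 130617448 to 130637521), a phosphoethanolamine-degrading enzyme of astrocytes, was at 4.47, 6.69, 12.0 and 9.98 in the PWK 1 libraries and at 385, 501, 553 and 568 in those of PWK 7. It had the largest log2 fold change of the 24 genes, 5.82 (standard error 0.26, adjusted p = 8.41e-09). *Igfn1* (chromosome 1, 135953578 to 136006342), which encodes a protein with immunoglobulin-like and fibronectin domains, went from 35.1 ± 5.33 to 1233 ± 164 (SD, n = 4), or 35.1-fold. *Hapln4* (chromosome 8, 70083457 to 70090862), a link protein that ties hyaluronan to proteoglycans in perineuronal nets, was at 152, 266, 139 and 80.8 at PWK 1 and at 3739, 3381, 3447 and 3399 at PWK 7. Its lowest PWK 7 value was thus more than 10 times its highest PWK 1 value, and its log2 fold change was 4.57 (standard error 0.26, adjusted p = 4.56e-08). *Igfbp6* (chromosome 15, 102144362 to 102149511), which binds insulin-like growth factors, was 17.2-fold higher. *Pvalb* (chromosome 15, 78191114 to 78206400), the calcium-binding protein that names the parvalbumin interneurons, was at 88.0, 143, 49.4 and 41.6 and then at 1015, 1108, 1036 and 1089, or 3.88 on the log2 scale (adjusted p = 5.05e-07). *Scn4b* (chromosome 9, 45138395 to 45154152), a sodium channel beta subunit, was at 362, 605, 959 and 353 at PWK 1 and at 4067, 3894, 3790.2 and 4623 at PWK 7. Its highest PWK 1 value was in replicate 3, the library with striatal and olfactory bulb genes, and without that library its log2 fold change was 3.26 instead of 2.96. *BC030499* (chromosome 11, 78290841 to 78296805) and *Sec14l5* (chromosome 16, 5147109 to 5187271) rose by 4.93 and 3.70. The highest PWK 1 value of *BC030499* was in replicate 2, without which its log2 fold change was 5.36. The remaining 4 of the 12, *Mal*, *Opalin*, *Ermn* and *Trf*, are oligodendrocyte genes and are described with myelin.

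Most of the largest falls were in genes of immature neurons and their surroundings. *Cd24a* (chromosome 10, 43578284 to 43584265), a surface glycoprotein of newly formed neurons, was at 5134, 4165, 5635 and 5795 at PWK 1 and at 223, 189, 222 and 256 at PWK 7. That is 23.3-fold lower by the means, or -4.53 on the log2 scale (standard error 0.11, adjusted p = 3.85e-10). *Dpysl3* (chromosome 18, 43320984 to 43438286) and *Dpysl5* (chromosome 5, 30711564 to 30799375), collapsin response mediator proteins that act in growth cones, fell by 3.94 and 3.81 on the log2 scale. *Dpysl3* was at 23070.2, 15541, 31287 and 31509 and then at 1538, 1446, 1587 and 1780.2, so that the PWK 1 mice spread over a 2-fold range and the PWK 7 mice over a narrow one. *Marcksl1* (chromosome 4, 129513581 to 129515985), a regulator of actin at the membrane, went from 19913 ± 1693 to 2412 ± 106 (SD, n = 4) and had the smallest adjusted p of the 24 genes, 7.79e-11. *Tubb2b* (chromosome 13, 34126748 to 34130466), a beta tubulin of migrating and growing neurons, was at 29046, 20696, 39345 and 39134 and then at 4115, 4454, 3908 and 4025. Adhesion and matrix genes fell too: *Tnc* (chromosome 4, 63959785 to 64047015), which encodes tenascin C of the immature matrix, was 8.76-fold lower, and *Cxadr* (chromosome 16, 78301489 to 78359774), a cell adhesion molecule, 6.68-fold lower. *Slc29a4* (chromosome 5, 142692512 to 142722490), the plasma membrane monoamine transporter, was 7.51-fold lower. *Trim67* (chromosome 8, 124793092 to 124834713), a ubiquitin ligase of developing axons, was 8.73-fold lower. *Aplnr* (chromosome 2, 85136225 to 85139923), the receptor of the peptide apelin, went from 589 ± 41.3 to 37.2 ± 17.0 (SD, n = 4).

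For 2 of the 12 falls the values call for care. *Cdhr1* (chromosome 14, 37077857 to 37098347), a cadherin abundant in the olfactory bulb, was at 562, 378, 2128 and 562 at PWK 1, with the high value in the library that carries olfactory bulb genes, and at 49.0, 65.0, 97.9 and 96.8 at PWK 7. Without that library its log2 fold change was -2.71 instead of -3.24 (adjusted p = 4.42e-06 and 4.8e-05). The predicted gene *Gm49450* (chromosome 15, 98932137 to 98953551) was at 2062, 2135, 3759 and 1754 at PWK 1 and at 1117, 0, 262 and 616 at PWK 7. Every 31-base word of its transcripts is found in another gene too, and 85.4% of the words in the alpha tubulin *Tuba1a*, so its reads cannot be assigned to it, and its call was lost under 8 alternative settings.

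**Figure D2:**
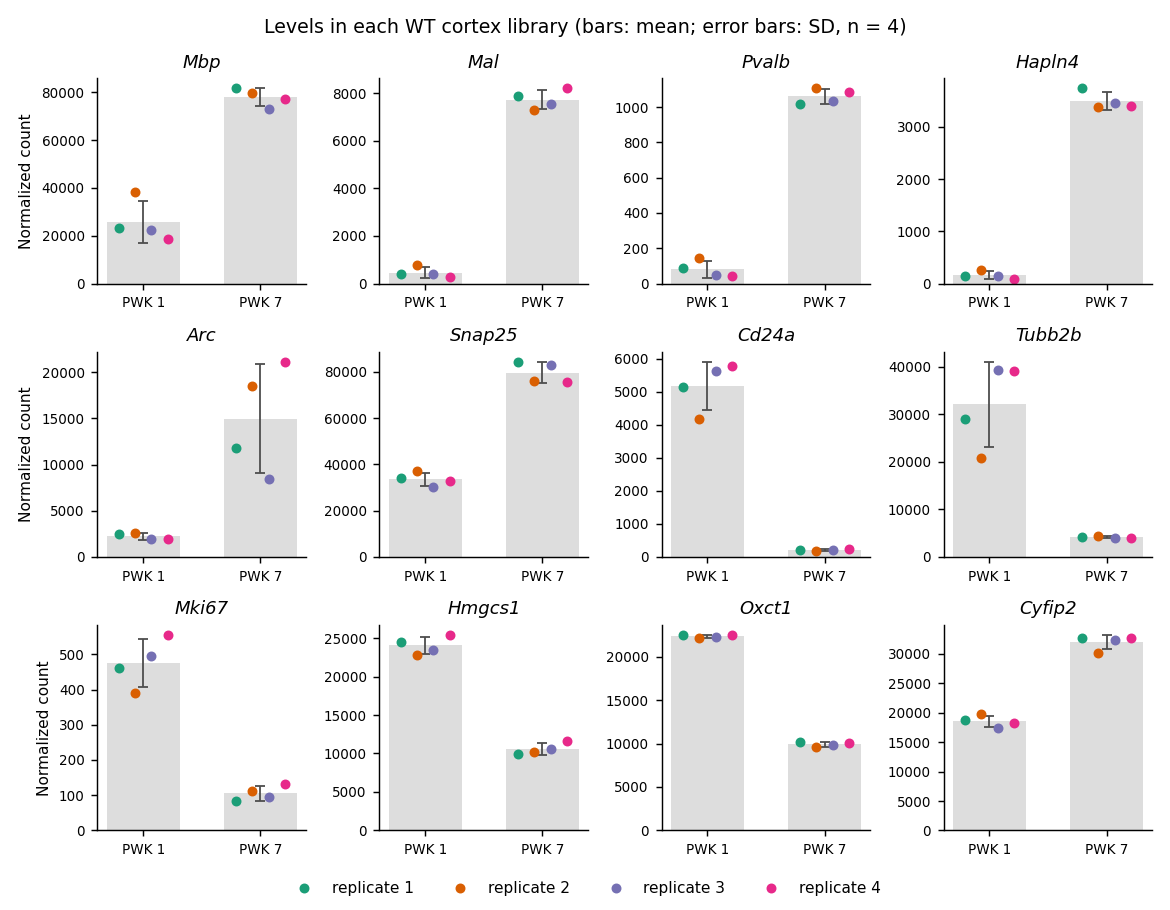
Normalized count in each WT cortex library for 12 genes at PWK 1 and PWK 7. Points are single mice coloured by replicate number, which does not link mice of different ages, and bars and error bars give the mean and SD of n = 4. The 12 genes were picked among called genes, and their groups do not overlap, as in 53.8% of all genes tested. The spread of *Arc* at PWK 7, from 8467 to 21148, is the widest of the rising genes.

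Every gene of the myelin list rose. All 28 tested members were higher at PWK 7, 23 of them at least 2-fold, where 29.0% and 6.91% of all genes did, with a median log2 fold change of 1.89. *Mbp* (chromosome 18, 82475146 to 82585637), myelin basic protein, was at 23125, 38507, 22290.3 and 18837 at PWK 1 and at 81702, 79951, 72984 and 77175 at PWK 7. *Mbp* was thus already high in the first week and rose 3.03-fold. Other genes of the sheath had larger fold changes. *Hapln2*, the link protein of the nodes of Ranvier, went from 20.1 ± 4.10 to 486 ± 42.8, a log2 fold change of 4.54 (SD, n = 4). *Mal* (chromosome 2, 127633226 to 127656695), a lipid raft protein of compact myelin, was at 419.9, 767, 385 and 265 and then at 7866, 7296, 7563 and 8212. *Opalin* (chromosome 19, 41061710 to 41077113), a membrane protein of the paranodal loops, rose by 3.42, and *Ermn* (chromosome 2, 58045113 to 58052864), a cytoskeletal protein of oligodendrocytes, by 3.40. *Trf* (chromosome 9, 103204001 to 103230444), the iron carrier transferrin, rose by 3.10, and 60.6% of its 31-base words occur in an overlapping read-through gene. The highest PWK 1 value of *Mbp*, *Mal*, *Opalin*, *Ermn* and *Trf* was in replicate 2 each time. Without replicate 2 the log2 fold change of *Mbp* was 1.87, that of *Mal* 4.46, that of *Opalin* 3.72, that of *Ermn* 3.68 and that of *Trf* 3.24, and without replicates 2 and 3 together all 28 members were still higher.

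Markers of the precursors of oligodendrocytes went the other way. Of 12 tested, 9 fell and 1 rose, beside 30.0% and 29.0% of all genes, with a median of -0.58. *Gpr17*, a receptor of precursors that have committed to differentiate, fell from 6236 ± 555 to 2736 ± 301 (SD, n = 4), a log2 fold change of -1.19. *Lhfpl3* fell by 0.88, *Pdgfra*, the growth factor receptor of dividing precursors, by 0.84, and the kinase *Fyn* by 0.75 on the log2 scale. The member that rose was *Bcas1*, a gene of newly forming myelin, at 0.64. *Sox10*, a transcription factor of the whole lineage, was at 1046 ± 21.7 and 1047 ± 51.5 (adjusted p = 0.997 from limma), and *Bmp4* at 215 ± 82.5 and 181 ± 76.5 (adjusted p = 0.577 from limma).

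Genes of cholesterol synthesis fell while the myelin genes rose. Cholesterol cannot cross the blood-brain barrier, and the brain makes its own from acetyl-CoA by way of mevalonate. Of 26 tested members, 20 were lower (30.0% of all genes), 6 at least 2-fold (5.86% of all genes), and 1 was higher. *Hmgcs1*, which makes the precursor of mevalonate, was at 24475, 22856, 23481 and 25396 at PWK 1 and at 9985, 10197, 10544 and 11624 at PWK 7, a change of -1.19 on the log2 scale (standard error 0.05, adjusted p = 9.05e-09). Every PWK 7 value lay far below the lowest PWK 1 value. *Sqle*, squalene epoxidase, fell by 1.20, *Mvk*, mevalonate kinase, by 1.12, and *Mvd*, mevalonate diphosphate decarboxylase, by 1.04. The member that rose was *Cyp46a1*, the neuronal hydroxylase that starts the removal of cholesterol from the brain, from 4212 ± 508 to 6592 ± 107 (SD, n = 4). The transcription factor gene of the pathway, *Srebf2*, was at 8130.2 ± 217 and 7849 ± 136 (adjusted p = 0.25 from limma).

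The heptamer ACCCCAC, the core of a sterol regulatory element, was searched on both strands in the promoters that RefSeq annotation gives on GRCm38.p6, from 250 bases before to 50 bases after the start of transcription. It was found in 3 of 19 promoters of the cholesterol list (15.8%) and in 6.35% of the promoters of all genes tested that matched. The 3 promoters that hold it are printed here with the heptamer in capitals, because they belong to genes of the list that fell.
*Hmgcs1* (chr13:119690101-119690400, plus strand): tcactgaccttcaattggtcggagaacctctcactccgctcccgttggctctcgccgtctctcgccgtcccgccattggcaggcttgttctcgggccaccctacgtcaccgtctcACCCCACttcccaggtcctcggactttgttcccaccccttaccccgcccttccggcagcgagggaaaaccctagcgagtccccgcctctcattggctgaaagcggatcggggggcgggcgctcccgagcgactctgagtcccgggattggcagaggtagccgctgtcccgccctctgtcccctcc
*Acat2* (chr17:12960676-12960975, minus strand): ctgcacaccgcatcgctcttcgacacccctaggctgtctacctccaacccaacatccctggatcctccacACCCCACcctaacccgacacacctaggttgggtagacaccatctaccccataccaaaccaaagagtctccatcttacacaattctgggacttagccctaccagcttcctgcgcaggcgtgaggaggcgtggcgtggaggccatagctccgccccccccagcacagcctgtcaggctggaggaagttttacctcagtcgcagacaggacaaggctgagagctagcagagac
*Nsdhl* (chrX:72918271-72918570, plus strand): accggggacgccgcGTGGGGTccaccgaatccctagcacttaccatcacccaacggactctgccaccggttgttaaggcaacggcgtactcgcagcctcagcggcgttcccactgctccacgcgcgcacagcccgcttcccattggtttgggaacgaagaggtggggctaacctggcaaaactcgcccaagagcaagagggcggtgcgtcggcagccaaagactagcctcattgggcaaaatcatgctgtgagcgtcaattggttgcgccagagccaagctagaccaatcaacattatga
The heptamer starts 135 bases before the annotated start in *Hmgcs1* and 180 bases before it in *Acat2*, both in the direction of the gene, and is on the other strand in *Nsdhl*. *Acat2* and *Nsdhl* fell by 0.96 and 0.82 on the log2 scale, within the range of members whose promoter does not hold these letters.

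Cell division genes fell almost throughout. Of 40 tested, 33 were lower (30.0% of all genes), 22 at least 2-fold (5.86% of all genes), and the median was -1.10. *Cdk1*, the kinase that drives mitosis, was at 93.4, 101, 99.0 and 149 at PWK 1 and at 6.73, 20.7, 13.8 and 9.41 at PWK 7. The PWK 7 values are close to the filter of 10 normalized counts. *Mki67*, the antigen of cycling cells, was at 461, 390.0, 495 and 555 and then at 82.9, 111, 94.6 and 131, or -2.18 on the log2 scale (standard error 0.15, adjusted p = 2.25e-07). *Top2a*, a topoisomerase of dividing cells, fell by 2.14. The spindle protein gene *Nusap1* had a log2 fold change of -2.21. *Ccnd1*, a cyclin of the first gap phase that neurons also express, was the only member that rose, by 0.56. At PWK 7 cycling genes were low but not at 0.

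Promoters of cell cycle genes often carry a CHR element (TTTGAA) and CCAAT boxes. Both motifs, searched on both strands of the same 300 bases, were present in 14 of 32 promoters of the proliferation list that matched (43.8%) and in 5.1% of the promoters of all genes tested. TTTGAA alone was in 43.8% against 11.9%, and CCAAT in 78.1% against 38.4%. The 3 of these genes with the largest fall are printed here, with both motifs in capitals on whichever strand they lie (ATTGG is CCAAT, and TTCAAA is TTTGAA, on the other strand).
*Cdk1* (chr10:69352863-69353162, minus strand): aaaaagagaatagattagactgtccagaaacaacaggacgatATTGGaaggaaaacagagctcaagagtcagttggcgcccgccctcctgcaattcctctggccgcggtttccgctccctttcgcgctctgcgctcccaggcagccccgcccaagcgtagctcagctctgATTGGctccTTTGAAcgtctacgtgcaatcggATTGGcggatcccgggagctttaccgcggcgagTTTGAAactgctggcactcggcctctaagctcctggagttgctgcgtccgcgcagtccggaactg
*Mki67* (chr7:135716330-135716629, minus strand): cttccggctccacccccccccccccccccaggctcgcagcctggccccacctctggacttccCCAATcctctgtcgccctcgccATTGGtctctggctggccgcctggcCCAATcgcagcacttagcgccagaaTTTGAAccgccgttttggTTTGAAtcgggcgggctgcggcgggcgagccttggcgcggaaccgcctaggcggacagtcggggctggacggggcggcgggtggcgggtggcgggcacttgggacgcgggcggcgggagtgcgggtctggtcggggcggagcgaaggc
*Top2a* (chr11:99024140-99024439, minus strand): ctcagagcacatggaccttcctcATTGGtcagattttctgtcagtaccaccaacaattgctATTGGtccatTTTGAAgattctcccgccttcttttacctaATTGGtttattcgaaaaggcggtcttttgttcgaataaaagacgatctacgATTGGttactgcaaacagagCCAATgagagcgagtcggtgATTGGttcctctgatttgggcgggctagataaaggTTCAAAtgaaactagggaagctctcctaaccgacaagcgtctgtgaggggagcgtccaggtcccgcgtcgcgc
In *Cdk1* the motif TTTGAA starts 15 bases before the annotated start, and a CCAAT box on the other strand starts 48 bases before it. In *Top2a* a TTTGAA on the other strand starts 23 bases before the start and a CCAAT box on the other strand 58 bases before it. These matches describe the letters only.

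Genes of neuronal outgrowth and migration fell as a group. Of 38 tested, 35 were lower (30.0% of all genes) and 18 of these at least 2-fold (5.86% of all genes), with a median of -0.87. *Cd24a*, *Dpysl3*, *Dpysl5* and *Marcksl1*, described above, fell most. *Dcx*, doublecortin, the microtubule protein of migrating neurons, was at 5400.0, 4202, 8405 and 6300.0 at PWK 1 and at 936, 1161, 1222 and 1492 at PWK 7. *Gap43*, a growth cone protein, went from 22879 ± 2575 to 6134 ± 369 (SD, n = 4), or 3.73-fold lower, and *Stmn2*, a microtubule-destabilizing protein of growing axons, was 3.58-fold lower. *Lpar1*, the only member that rose (1.31), encodes a lysophosphatidic acid receptor that mature oligodendrocytes express. The guidance genes *Slit2* and *Nrp1* had log2 fold changes of -0.07 and 0.15 (adjusted p = 0.553 and 0.145 from limma).

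The tubulins, the subunits of microtubules, fell with them. Of 13 tubulin genes 10 were lower (30.0% of all genes), 7 at least 2-fold (5.86% of all genes), with a median of -1.51. *Tuba1a* (chromosome 15, 98949837 to 98953703), the main alpha tubulin of young neurons, was at 143918, 123630.1, 169532 and 168303 and then at 36764, 35063, 37212 and 36439. *Tubb2a* was 3.73-fold and *Tubb3* 2.87-fold lower, and *Tubb6* fell by 2.33 on the log2 scale. *Tubb2a* and *Tubb2b* are near-identical copies, and *Tuba1a* has further copies. *Tubb2b* shares 43.1%, *Tubb2a* 56.4% and *Tuba1a* 77.0% of its 31-base words with other genes, so the split between copies is uncertain, while both *Tubb2a* and *Tubb2b* fell. *Tuba8* rose by 1.42 and *Tuba4a* by 0.24, and *Tubb4a*, a tubulin of oligodendrocytes and axons, was at 24583 ± 1299 and 26123 ± 1281 (adjusted p = 0.146 from limma). Motor proteins changed in both directions. *Kif21b*, a kinesin of neurons, was 5.25-fold lower (27641, 24597, 29043 and 31285 at PWK 1, 5576, 5354, 5170.5 and 5357 at PWK 7), and *Kif5a*, a kinesin of mature axonal transport, was 2.59-fold higher. Of the neurofilament and axon cytoskeleton genes 4 rose and 6 fell of 13, beside 29.0% and 30.0% of all genes.

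**Figure D3:**
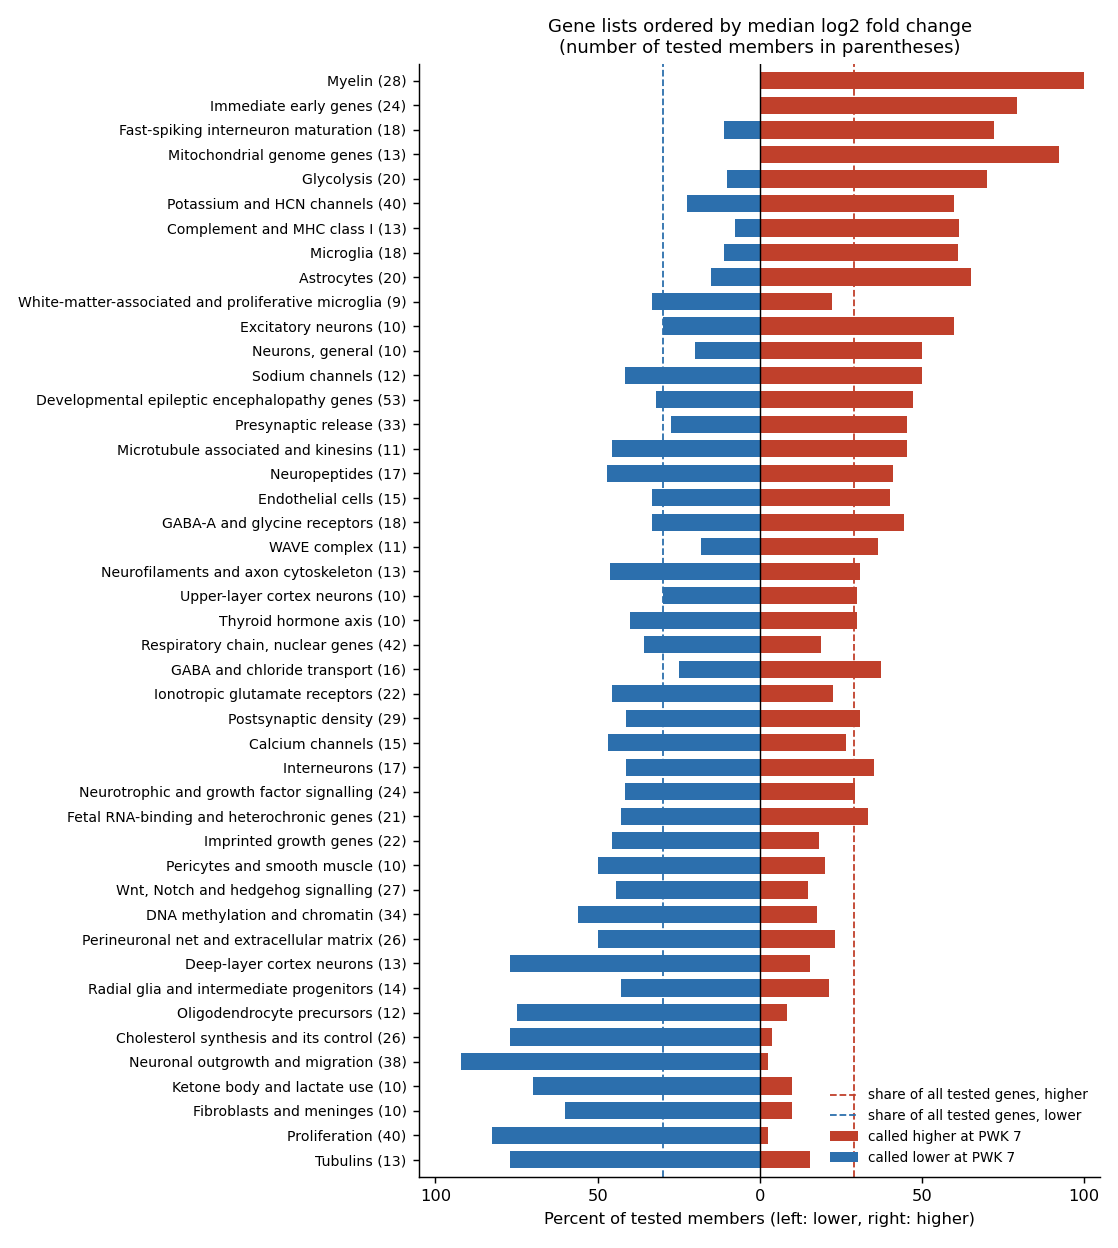
Percent of the tested members of each gene list called higher (right, red) or lower (left, blue) at PWK 7 in the WT cortex, with the number tested in parentheses and lists ordered by their median log2 fold change. Dashed lines mark the shares of all genes tested, 29.0% higher and 30.0% lower. Myelin and immediate early genes have the highest medians, and tubulins and proliferation genes the lowest. Myelin, immediate early and mitochondrial genome genes reach only to the right. Proliferation, outgrowth and cholesterol genes reach mostly to the left, and most synaptic and channel lists reach both sides.

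Exchanges of subunits and isoforms were measured as the log2 ratio of 2 genes within each library, which hardly depends on the scaling between libraries. Counts of different genes are not corrected for transcript length, so only the change of a ratio is read. Of 25 pairs of a later over an earlier gene, the ratio was higher at PWK 7 in all 4 mice than in any mouse of PWK 1 for 19 pairs, lower for 2 and overlapping for 4. Among all single genes tested 53.8% did not overlap between the ages. The share among other gene pairs was not computed, so these counts are not read as particular to the pairs. Pairs without overlap have an exact permutation p of 0.0286, the smallest that 4 mice against 4 allow, and 0.034 after adjustment over the 25 pairs. With 1 library left out, 18 to 21 pairs had an adjusted p below 0.05 in the exact permutation test, and *Bcan*/*Vcan* did not reach it when any PWK 7 library was left out. In 11 pairs the later gene rose and the earlier gene fell, both at adjusted p below 0.05.

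Among glutamate receptors, the NMDA receptor subunits moved towards the adult set. The ratio *Grin2a*/*Grin2b* was -2.34, -2.19, -2.50 and -2.44 at PWK 1 and -1.25, -1.25, -1.31 and -1.31 at PWK 7, a 2.12-fold higher ratio. It came mainly from *Grin2a*, which rose from 4294 ± 442 to 7956 ± 705 (SD, n = 4), while *Grin2b* fell only from 22107 ± 849 to 19326 ± 1449.8. *Grin2c*/*Grin2d* went from -1.41 ± 0.42 to 1.64 ± 0.26, 8.29-fold, with *Grin2c* up by 1.40 and *Grin2d* down by 1.65 on the log2 scale. *Grin3a*, a subunit of juvenile receptors, fell by 1.64. The AMPA receptor ratio *Gria1*/*Gria4* was one of the 2 that went down, from 1.84 ± 0.04 to 1.46 ± 0.12, as *Gria4* rose by 0.43 and *Gria1* had a change of 0.06 (adjusted p = 0.203 from limma). Over all ionotropic glutamate receptor genes, 5 rose and 10 fell of 22, beside 29.0% and 30.0% of all genes tested. The vesicular transporter ratio *Slc17a7*/*Slc17a6* rose 2.11-fold, with *Slc17a6* falling by 0.81. The scaffold ratio *Dlg4*/*Dlg3* was 1.99 ± 0.09 and 1.96 ± 0.06 and overlapped (exact permutation p = 0.657).

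GABA-A and glycine receptor genes changed in both directions, and 8 rose and 6 fell of 18, beside 29.0% and 30.0% of all genes. *Gabra5*, a subunit of extrasynaptic receptors, was at 3610.0, 3395, 3897 and 3999.5 at PWK 1 and at 1718, 1452, 1576 and 1579.7 at PWK 7. All 4 PWK 7 mice lay below the PWK 1 mice, and the log2 fold change was -1.24. Of other alpha and beta subunits, *Gabra3* and *Gabrb2* rose by 0.27 and 0.26, and *Gabra2* had -0.07 (adjusted p = 0.624 from limma). *Gabrq* and the glycine receptor gene *Glra2* fell most of the GABA-A and glycine receptor genes, with -1.91 and -1.66, and *Gabrd*, another extrasynaptic subunit, rose by 0.93. Chloride transporters gave a different picture. *Slc12a5*, which extrudes chloride from mature neurons, rose from 14448 ± 1013 to 20718 ± 725, and *Slc12a2*, which imports it, rose as well, from 1678 ± 73.6 to 2367 ± 101 (SD, n = 4). Their ratio was 3.10 ± 0.10 and 3.13 ± 0.06 and overlapped (exact permutation p = 0.657).

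Sodium channel genes changed in both directions, and 6 rose and 5 fell of 12, beside 29.0% and 30.0% of all genes. At least 2-fold changes were made by 3 upwards and 1 downwards, and the median was 0.16. *Scn2b*, a beta subunit like *Scn4b*, rose by 1.28, and *Scn9a* fell from 170.0 ± 39.9 to 39.8 ± 5.72 (SD, n = 4). Of the pore-forming subunits, *Scn1a* rose by 0.70, *Scn8a* by 0.38, and the early subunit *Scn3a* fell by 0.95. The ratio *Scn1a*/*Scn3a* was 0.20, 0.63, -0.06 and 0.14 and then 1.93, 1.79, 1.84 and 1.94, and *Scn8a*/*Scn3a* rose 2.51-fold. *Fgf12*, which encodes a protein that binds sodium channels, was the only one of 12 genes of that list not called (0.11, adjusted p = 0.0927 from limma). Potassium and HCN channel genes mostly rose, 24 of 40, and 9 fell, beside 29.0% and 30.0% of all genes. *Kcnab2*, an auxiliary subunit of axonal channels, rose by 1.44. *Kcnc1*, the channel of fast-spiking neurons, went from 2534 ± 256 to 6678 ± 211 (SD, n = 4), while *Kcnd2* had -0.05 (adjusted p = 0.495 from limma), so that *Kcnc1*/*Kcnd2* rose 2.73-fold. *Hcn4* and *Hcn3*, subunits of the pacemaker channels, fell by 1.74 and 1.40.

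**Figure D4:**
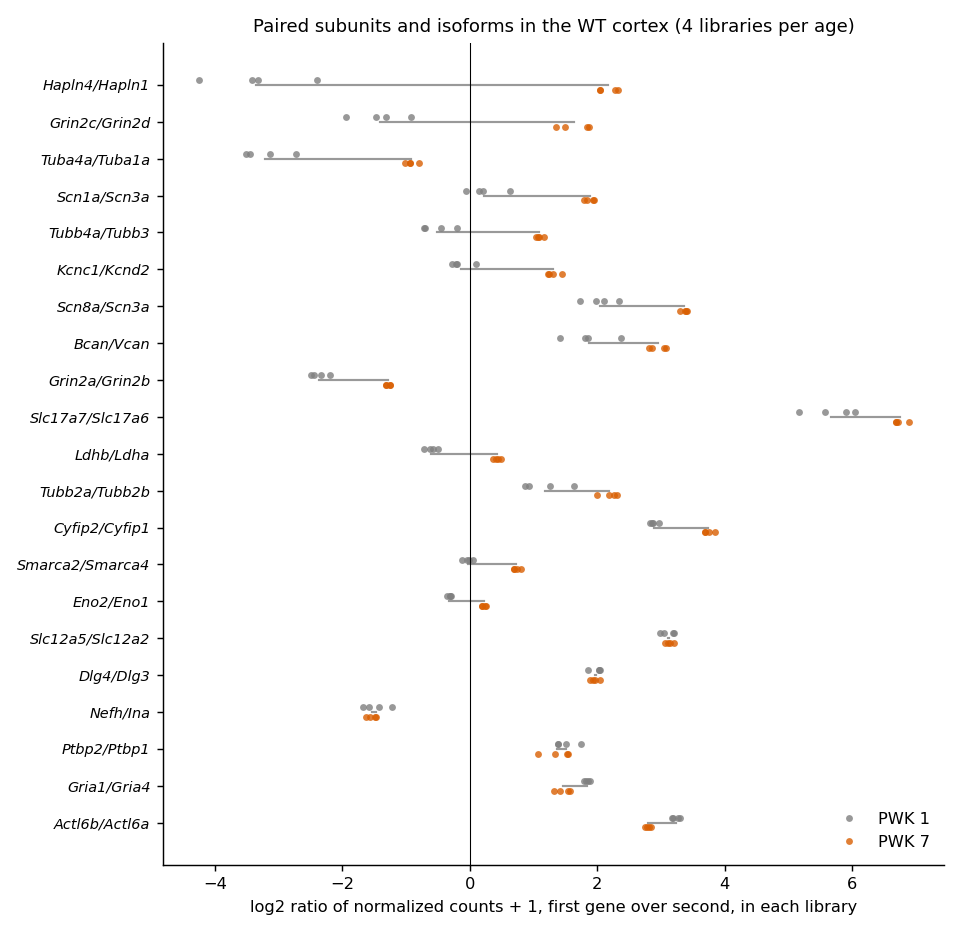
Log2 ratio of the normalized counts plus 1 of the first over the second gene of 21 of the 25 pairs in each WT cortex library, at PWK 1 (grey) and PWK 7 (orange), with lines joining the means of n = 4. Pairs are ordered by the change: *Hapln4*/*Hapln1* moved most, by 5.52, and the points of both ages overlap for *Slc12a5*/*Slc12a2*, *Dlg4*/*Dlg3*, *Nefh*/*Ina* and *Ptbp2*/*Ptbp1*.

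Further pairs concern the cytoskeleton, metabolism and the nucleus. *Tuba4a*/*Tuba1a* rose 4.88-fold, *Tubb4a*/*Tubb3* 3.04-fold and *Tubb2a*/*Tubb2b* 2.02-fold, the last because *Tubb2b* fell more than *Tubb2a*. The neurofilament ratio *Nefh*/*Ina* overlapped (exact permutation p = 0.6), with *Nefh* up by 0.34 and *Ina* by 0.41. The lactate dehydrogenase ratio *Ldhb*/*Ldha* rose 2.05-fold and the enolase ratio *Eno2*/*Eno1* 1.45-fold. Among chromatin remodelling subunits, *Smarca2*/*Smarca4* rose 1.70-fold and *Actl6b*/*Actl6a* was the second of the 2 ratios that went down, from 3.23 ± 0.06 to 2.80 ± 0.04. The splicing factor ratio *Ptbp2*/*Ptbp1* overlapped (exact permutation p = 0.371).

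Genes of the list for fast-spiking interneuron maturation mostly rose. That list also holds *Lhx6* and the peptide genes *Sst*, *Vip*, *Npy*, *Tac1*, *Crh* and *Cck*, which are not particular to fast-spiking cells. Of its 18 members 13 rose (29.0% of all genes), 5 at least 2-fold (6.91%), and 2 fell (30.0%). *Vamp1*, a synaptic vesicle protein, was at 1185, 1361, 1183 and 1092 at PWK 1 and at 4324, 4306, 4329 and 4314 at PWK 7, so the 4 PWK 7 mice were nearly equal. *Syt2*, a fast calcium sensor of vesicle release, rose by 1.24. *Gad1*, which makes GABA and is not in that list, rose from 4071 ± 397 to 8178 ± 267 (SD, n = 4). The transcription factor *Lhx6* fell by 0.59. Of general interneuron markers 6 rose and 7 fell of 17: *Calb2* and *Reln* fell by 1.58 and 1.50 and *Vip*, a member of both lists, rose by 1.08. *Calb2* was highest in PWK 1 replicate 3, the library with olfactory bulb genes, and its log2 fold change was -1.32 without it. In the matrix list 6 of 26 genes rose and 13 fell. *Vcan*, the versican of the immature matrix, and *Hapln1* fell by 1.15 and 0.95, while *Bcan* had -0.07 (adjusted p = 0.331 from limma). *Hapln4*/*Hapln1* was -3.32, -2.40, -3.43 and -4.26 at PWK 1 and 2.32, 2.04, 2.28 and 2.04 at PWK 7, and *Bcan*/*Vcan* rose 2.12-fold.

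Synaptic genes changed in both directions, as did all genes tested, of which 29.0% rose and 30.0% fell. Of presynaptic release genes 15 rose and 9 fell of 33, and of postsynaptic density genes 9 rose and 12 fell of 29. *Snap25*, a protein of the vesicle fusion complex, was at 34146, 36981, 30063 and 32918 at PWK 1 and at 84417, 76076, 82867 and 75519 at PWK 7. *Slc17a8*, the third vesicular glutamate transporter, fell by 1.63. *Camk2a*, a kinase of the postsynaptic density, went from 64426 ± 9542 to 132447 ± 4766 (SD, n = 4), and the scaffolds *Homer1*, *Dlgap1* and *Baiap2* rose by 1.35, 1.05 and 0.85.

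Immediate early genes, which neurons switch on within minutes of activity, were higher at PWK 7. Of 24 tested, 19 rose (29.0% of all genes), 13 at least 2-fold (6.91% of all genes), and none fell, with a median of 1.04. *Arc*, which acts at synapses, was at 2518, 2545, 1911 and 1932 at PWK 1 and at 11815, 18506, 8467 and 21148 at PWK 7. The age groups did not overlap, but the PWK 7 mice differed among themselves by more than 2-fold, with replicates 2 and 4 highest. *Ptgs2*, an inducible prostaglandin synthase, was at 153, 155, 140.2 and 140.4 and then at 741, 990.2, 787 and 923, or 2.53 on the log2 scale (standard error 0.10, adjusted p = 3.97e-09). *Fosb* rose by 2.02 and *Ier5* by 1.85, and the growth factor *Bdnf* went from 634 ± 63.5 to 1468 ± 252 (SD, n = 4). PWK 7 replicates 2 and 4 are also the libraries with more striatal RNA, and its part in the values of this list was not tested.

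Genes of ketone body use fell and genes of glycolysis rose. Suckling pups burn ketone bodies from milk fat. Of 10 genes of ketone body and lactate use, 7 fell (30.0% of all genes), 3 at least 2-fold (5.86%), and 1 rose, *Ldhb*. *Oxct1*, the rate-setting enzyme of ketone body use, was at 22444, 22139, 22305 and 22474 at PWK 1 and at 10147, 9563, 9819 and 10071 at PWK 7. Mice of an age differed by only a few percent, and the log2 fold change was -1.17 (standard error 0.04, adjusted p = 7.5e-10). *Slc16a1*, a transporter of ketone bodies and lactate, fell by 1.71, *Bdh1*, which oxidizes hydroxybutyrate, by 1.30, and *Slc16a7*, the neuronal transporter, by 0.96. *Slc16a3*, another transporter of lactate, was not called (0.16, adjusted p = 0.576 from limma). In glycolysis 14 of 20 genes rose and 2 fell, beside 29.0% and 30.0% of all genes. *Aldoc*, the aldolase of astrocytes, rose by 1.11, and *Slc2a1*, the glucose transporter of the blood-brain barrier, by 1.01.

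Transcripts of the mitochondrial genome rose. Of the 13 protein genes of mitochondrial DNA, 12 were higher, with a median of 0.64, and they made up 3.64% to 3.97% of a library's total at PWK 1 and 5.63% to 6.17% at PWK 7. *mt-Nd2*, a subunit of complex I, was 1.70-fold higher and shares 13.5% of its 31-base words with nuclear copies. *mt-Nd6*, the subunit encoded on the other strand, was 2.10-fold higher. *mt-Co3*, at 0.65 (adjusted p = 0.26 from limma), was not called, and 99.9% of its words occur in a nuclear copy, so its reads can be split between both. Its level was 7035, 14743, 35936 and 7669 at PWK 1, highest in replicate 3, and without that library it was called at 1.14 (adjusted p = 0.0189 from limma). Among 42 nuclear genes of the respiratory chain 8 rose and 15 fell (beside 29.0% and 30.0% of all genes), none by 2-fold, with a median of -0.03. The difference between the lists was not tested.

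Markers of glia rose more often than they fell, and those of vessels changed in both directions. Of astrocyte markers 13 of 20 rose and 3 fell, beside 29.0% and 30.0% of all genes. *S100b*, a calcium-binding protein, rose by 1.57 and the connexin *Gjb6* by 1.37, while *Agt*, the precursor of angiotensin, fell by 1.03. Of microglia markers 11 of 18 rose and 2 fell, led by the protease *Ctss* at 1.24 and *Selplg* at 1.03. Of genes of white-matter-associated and proliferative microglia 2 rose and 3 fell of 9, with a median of 0.21. Among them *Lpl*, a lipase that other cells also express, fell from 1777 ± 239.9 to 383 ± 17.7 (SD, n = 4). Of endothelial markers 6 rose and 5 fell of 15. The barrier transporters *Slco1a4* and *Abcb1a* rose by 1.58 and 1.14, and *Kdr*, the growth factor receptor of sprouting vessels, fell by 1.28. Fibroblast and meningeal genes summed to 8325 to 12889 at PWK 1 and to 4793 to 5826 at PWK 7, and 6 of 10 fell. The collagen *Col3a1* was at 1245 ± 278 and then at 264 ± 32.5 (SD, n = 4). Whether dissection took more meninges at PWK 1 was not tested. Red blood cell genes summed to 8402 to 13503 at PWK 1 and to 6460.3 to 8720.0 at PWK 7. Choroid plexus genes summed to at most 859 in any library.

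Markers of neuron classes differed in direction, beside 29.0% of all genes that rose and 30.0% that fell. Of deep-layer markers 10 of 13 fell, with a median of -0.30, led by *Ntsr1*, the neurotensin receptor of corticothalamic cells, at -1.66. Of upper-layer markers 3 rose and 3 fell of 10, near the shares of all genes. Of excitatory markers 6 rose and 3 fell of 10, and *Lamp5* and *Nrn1* rose by 1.53 and 1.38. Of general neuronal markers 5 rose and 2 fell of 10. Of markers of radial glia and intermediate progenitors 3 rose and 6 fell of 14 (21.4% and 42.9%), with a median of -0.33. *Fabp7*, the fatty acid binding protein of radial glia and young astrocytes, was at 3515, 2953, 5255 and 4715 at PWK 1 and at 806, 763, 639.5 and 594 at PWK 7. *Eomes*, a marker of intermediate progenitors and of olfactory bulb projection neurons, was at 288 in PWK 1 replicate 3 and between 7.78 and 24.3 in the other 3, so its fall of 2.63 rests on that library. Without that library the gene does not pass the filter on low values.

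Regulators of chromatin fell more often than they rose. Of 34 chromatin genes 19 fell and 6 rose, beside 30.0% and 29.0% of all genes. *Dnmt3a*, which lays down new DNA methylation, was at 13275, 13758, 13966 and 13709 at PWK 1 and at 4199.5, 4657, 4330.0 and 4659 at PWK 7. The 4 mice of an age were close together, and the level was 3.07-fold lower (adjusted p = 4.26e-10). *Tet1*, which oxidizes methylated cytosine, fell by 1.60, *Uhrf1*, which maintains methylation in dividing cells, by 1.54, and the chromatin protein *Hmgb2* by 1.37. Of fetal RNA-binding and heterochronic genes 7 rose and 9 fell of 21, beside 29.0% and 30.0% of all genes, and *Igf2bp3* was between 24.2 and 54.0 at PWK 1 and between 0 and 8.42 at PWK 7. Of imprinted growth genes 10 of 22 fell and 4 rose: the noncoding *H19* went from 177 ± 30.0 to 13.6 ± 5.06 (SD, n = 4), *Magel2* fell by 2.48 and the growth factor *Igf2*, made mostly by meninges and vessels, by 1.29.

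Genes of peptides, growth factors and other signals changed in both directions, as did all genes tested, of which 29.0% rose and 30.0% fell. Of neuropeptide genes 7 rose and 8 fell of 17. *Nts*, neurotensin, fell by 2.40, and *Penk*, the precursor of enkephalins that striatal neurons also express strongly, was at 364, 544, 905 and 321 at PWK 1 and at 1192, 1599.6, 1071 and 1915 at PWK 7. The libraries with more striatal RNA at PWK 7, replicates 2 and 4, were also the higher ones for *Penk*, its log2 fold change of 1.52 was 1.81 without PWK 1 replicate 3, and the part of that RNA was not tested. Of growth factor genes 7 rose and 10 fell of 24 (29.2% and 41.7%). *Ntf3*, neurotrophin 3, fell from 50.5 ± 11.5 to 12.1 ± 4.38 (SD, n = 4), *Ngfr*, a receptor gene shared by neurotrophins, by 1.62 and *Igf1* by 1.11. In the thyroid hormone axis *Dio3*, the enzyme that inactivates the hormone, went from 10.7 ± 4.39 to 23.3 ± 5.59 (SD, n = 4), while the receptor *Thra* and the binding protein *Crym* fell by 0.67 and 0.89. Of Wnt, Notch and hedgehog genes 4 rose and 12 fell of 27, a count that fell to 7 when PWK 1 replicate 4 or PWK 7 replicate 3 was left out. Among complement and MHC class I genes 8 of 13 rose and 1 fell, led by *H2-K1*, which presents antigen, at 1.22, and by *Tap2*, which loads it, at 1.07. Pericyte and smooth muscle genes went both ways, 2 up and 5 down of 10, with the smooth muscle myosin *Myh11* up by 1.14 and the potassium channel subunit *Abcc9* down by 0.73. Among genes of GABA handling and chloride transport 6 rose and 4 fell of 16 (37.5% and 25.0%). *Slc6a11*, a GABA transporter of astrocytes, fell by 0.87. Of 7 metabotropic glutamate receptor genes *Grm3* rose by 0.37 and *Grm5* fell by 0.23. No calcium channel gene changed 2-fold, with 4 higher and 7 lower of 15.

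*Cyfip2* (chromosome 11, 46193850 to 46312859), the gene that the study inactivates in the HT mice, encodes a subunit of the WAVE complex, which links Rac signalling to actin. It rose in the WT cortex from 18737, 19736, 17489 and 18276 to 32668, 30231, 32459.5 and 32714. The log2 fold change was 0.79 (standard error 0.05, adjusted p = 6.21e-08), or 1.73-fold. Its paralog *Cyfip1* (chromosome 7, 55841745 to 55932602) was at 2509.9 ± 144 and 2387 ± 113 (SD, n = 4; adjusted p = 0.263 from limma), and *Cyfip2*/*Cyfip1* was 2.97, 2.86, 2.83 and 2.88 at PWK 1 and 3.70, 3.69, 3.85 and 3.75 at PWK 7. Of the 11 genes of the complex 4 rose and 2 fell: *Wasf3* rose by 0.51, and *Abi2* and *Wasf1* fell by 0.45 and 0.36. Of 53 genes in which variants cause developmental and epileptic encephalopathy, *Cyfip2* among them, 25 rose and 17 fell (47.2% and 32.1%, beside 29.0% and 30.0% of all genes), 2 and 3 of them at least 2-fold (6.91% and 5.86% of all genes). *Kcna2*, an axonal potassium channel, rose by 1.25, and *Pcdh19*, a protocadherin, fell by 1.28.

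The change in the cortex was compared with that in the hippocampus of the same mice by the difference of the 2 changes in 1 fit of 16 libraries. Of 17686 genes tested, 1561 (8.83%) changed more upwards in the cortex and 1303 (7.37%) more downwards, at adjusted p below 0.05 from limma. Taking the mouse as the unit gave 2774 calls in place of 2864, of which 2320 were in both. Of 28 myelin genes 11 rose less in the cortex and 2 rose more, and the medians were 1.89 in the cortex and 2.86 in the hippocampus. *Mal* rose by 4.18 in the cortex and 5.55 in the hippocampus, a difference of -1.37 (limma, adjusted p = 0.0476, and 0.00393 with the mouse as the unit). The call of the main fit was lost under 14 alternative settings, leaving out single libraries for most of them. Of 24 immediate early genes 10 rose more in the cortex and 1 less, with medians of 1.04 and 0.26. *Bdnf* rose by 1.20 in the cortex and had -0.06 in the hippocampus (difference 1.26, standard error 0.14, adjusted p = 8.01e-06). In the fast-spiking list, which holds genes of other interneurons too, 12 of 18 were above. An example is *Syt2*, which rose by 1.24 and 0.25 in the 2 regions (limma, adjusted p = 0.00192). Presynaptic genes were above in 15 of 33 and below in 3. *Slc29a4* fell by 2.90 in the cortex and had -0.50 in the hippocampus, with means there of 2561 and 1805, a difference of -2.40 (standard error 0.12, adjusted p = 2.14e-09). *Cyfip2* rose by 0.79 and 0.60 (difference 0.18, adjusted p = 0.0406, and 0.0728 with the mouse as the unit), a call lost under 14 settings too.

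**Figure D5:**
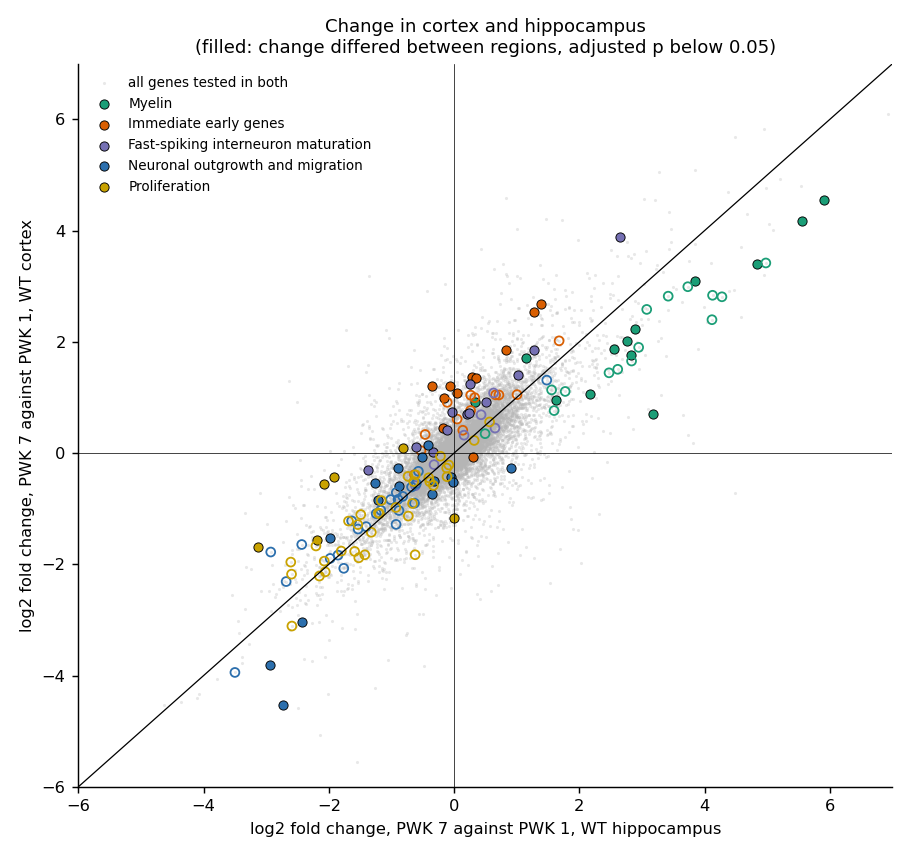
Log2 fold change from PWK 1 to PWK 7 in the WT hippocampus (horizontal) and WT cortex (vertical) for all genes tested in both, in grey, and for the members of 5 lists, in colour, with n = 4 mice at each age. Filled points are genes whose change differed between regions (adjusted p below 0.05), and the diagonal marks equal change. Most myelin genes lie below the diagonal, and *Arc*, *Ptgs2* and *Pvalb* lie above it.

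The HT littermates are other mice and share no library with the WT comparison. In their cortex 5284 genes (31.3% of 16871) rose and 5501 (32.6%) fell from PWK 1 to PWK 7. Of the 9871 genes called in the WT cortex and tested there, 9803 had the same direction in HT mice and 8836 were called in that direction, which is 89.5%. A single gene, *Cyp4f17*, chosen here after its values were seen, was called in the opposite direction, with log2 fold changes of -0.44 in WT (adjusted p = 0.0493) and 0.71 in HT mice. The medians of the lists were 2.30 for myelin, -1.10 for proliferation, -1.11 for outgrowth, -0.66 for cholesterol synthesis and 0.94 for immediate early genes, beside the WT values of 1.89, -1.10, -0.87, -0.60 and 1.04. *Pvalb* rose by 5.95 in HT and 3.88 in WT mice, and *Cd24a* fell by 4.95 and 4.53. On the scale set by the HT cortex, PWK 1 libraries lay at 0.085 to 0.244 in WT and at -0.054 to 0.065 in HT mice. The mean of these HT libraries sets the 0, so their place on the scale was fixed in advance. The difference between genotypes was not tested here.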

How the data were processed

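Salmon estimated transcript abundances by pseudo-mapping to GRCm38 (release 0.11.2 per the labels), and the authors imported them with tximport and deposited normalized counts scaled by DESeq2 (1.19.11, with R 3.6.0), a signal that is not whole reads. The table held 18428 genes, of which 18414 identifiers matched GENCODE vM21. Libraries were stranded and paired-end. Totals after scaling do not show depth. Steps between low values of genes with 1 transcript put depth at about 27.8 M to 31.0 M reads at PWK 1 and 36.2 M to 36.8 M at PWK 7, an estimate, since only 34.1% to 85.8% of those values were whole multiples within 0.1, so no reads were recovered and no count model was used.

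Here log2(normalized count + 1) was fitted with limma 3.58.1 in R 4.3.3 (lmFit, eBayes with trend, two-sided) for genes at 10 or more in at least 4 libraries, with Benjamini-Hochberg adjustment over all genes tested. The script was tested on simulated data. Pair ratios were compared by two-sided exact permutation tests. The difference between regions was fitted in 1 model of the 16 WT libraries, with the within-mouse difference as the alternative. Members and gene lists were chosen with earlier results of these data known, and the olfactory bulb and Y-linked lists after seeing the data. Genes named were the 12 largest rises and falls among called protein-coding genes with a mean of at least 500, up to 4 called members of largest change per list, members not called where a list had 2 or fewer, the genes of the pairs, *Cyfip2* and *Cyfip1*. *Mbp*, *Dcx*, *Gap43*, *Srebf2*, *Bcas1*, *Ccnd1*, *Cyp46a1*, *Lpar1*, *Lhx6*, *Tuba8* and *Cyp4f17* were added after their values were seen. Some genes that the rule names are not reported here. Shared sequence was counted as 31-base words of GENCODE transcripts. Promoters came from RefSeq (GRCm38.p6). Protein sequences were not used here.

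Alternatives were pseudocounts of 0.1 and 10, no filter and a filter of 50 in every library, equal totals, recomputed median-of-ratios factors, quantile normalization, robust and weighted variances, fits on 12 and 48 libraries, a replicate block and leaving out each library. Leaving out PWK 1 replicates 2 and 3 together, and the alternatives for HT mice, were chosen after seeing the data. Replicate numbers were checked by the correlation of deviations from group means: cortex and hippocampus came from the same mice per the study's methods, and libraries with the same number correlated by 0.0548 to 0.193 at PWK 1 and 0.0815 to 0.147 at PWK 7, and each correlated best with its own number.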

Additional observations from a re-analysis of the deposited data

Results flagged for a closer look

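In 17 of 412 groups of 4 mice, over the named genes and pair ratios, 1 mouse lay apart from the other 3 by more than Dixon's limit for 4 values allows. Chance flags about 1 in 20 such groups, and 4.13% were flagged here. Of these, 5 were PWK 1 replicate 2 and 5 were PWK 1 replicate 3, the libraries with most myelin RNA and with olfactory bulb RNA. PWK 1 replicate 2 was at 46.5 for *BC030499* (the others 13.4 to 13.6), 1437 for *Gabrd* (the others 968 to 1032), 3379 for *Grin3a* (the others 3837 to 3908), 4511 for *Homer1* (the others 3986 to 4064) and 2914 for *Kcnc1* (the others 2362 to 2444). PWK 1 replicate 3 was at 1362 for *Calb2* (the others 619 to 693), 2128 for *Cdhr1* (the others 378 to 562), 288 for *Eomes* (the others 7.78 to 24.3), 1549 for *Kdr* (the others 1799 to 1832) and 1.86 for the log2 ratio *Dlg4*/*Dlg3* (the others 2.02 to 2.04). PWK 1 replicate 4 was at 149 for *Cdk1* (the others 93.4 to 101) and 543 for *Top2a* (the others 392 to 412). PWK 7 replicate 1 was at 1244 for *Lpar1* (the others 945 to 989). PWK 7 replicate 2 was at 30231 for *Cyfip2* (the others 32459.5 to 32714) and 4858 for *Gabra3* (the others 5506 to 5546). PWK 7 replicate 4 was at 202 for *Tnc* (the others 226 to 230.4) and 132 for *Top2a* (the others 87.3 to 90.9).

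The change from PWK 1 to PWK 7 differed between cortex and hippocampus, by the test of the difference itself (limma, adjusted p below 0.05), for 68 of the 181 genes named, beside 16.2% of all genes. Most of the named genes were chosen for their change in the cortex, so nothing is read from that share. Values in parentheses are the cortex change minus the hippocampus change on the log2 scale, with 4 mice in each of the 4 groups. Among activity and plasticity genes, the change was higher in the cortex for *Arc* (1.28), *Bdnf* (1.26), *Ptgs2* (1.26), *Ier5* (1.02), *Homer1* (1.00) and *Nrn1* (0.59). Among myelin and oligodendrocyte genes, the change was higher in the cortex for *Pdgfra* (0.24). It was lower there for *Mal* (-1.37), *Ermn* (-1.44), *Hapln2* (-1.36) and *Trf* (-0.75). Among genes of interneurons and perineuronal nets, the change was higher in the cortex for *Pvalb* (1.23), *Syt2* (0.99), *Vamp1* (0.57), *Gad1* (0.59), *Hapln4* (1.53) and *Kcnc1* (0.39). Among glutamate and GABA receptor and transporter genes, the change was higher in the cortex for *Gabra3* (0.91), *Gabrb2* (0.31), *Gria4* (0.75), *Grin2c* (0.60), *Slc12a5* (0.23), *Slc17a6* (0.89) and *Slc17a7* (0.27). The change was lower in the cortex for *Gabra5* (-0.80), *Gria1* (-0.24), *Slc12a2* (-0.56) and *Slc17a8* (-1.20). Among channel genes, the change was higher in the cortex for *Scn1a* (0.35), *Scn8a* (0.20), *Fgf12* (0.43), *Hcn4* (0.85) and *Kcna2* (0.69). It was lower there for *Scn3a* (-0.47) and *Scn9a* (-1.80). Among synaptic and scaffold genes, the change was higher in the cortex for *Camk2a* (0.33), *Snap25* (0.65) and *Dlgap1* (0.37). The change was lower in the cortex for *Dlg3* (-0.15). Among cytoskeleton genes, the change was higher in the cortex for *Ina* (0.67), *Nefh* (0.51), *Kif5a* (0.29) and *Cyfip2* (0.18). It was lower there for *Tubb2a* (-0.55), *Wasf1* (-0.44), *Marcksl1* (-0.62) and *Dpysl5* (-0.87). Among adhesion, matrix and guidance genes, the change was higher in the cortex for *Nrp1* (0.56) and *Slit2* (0.45). The change was lower in the cortex for *Cd24a* (-1.80), *Cdhr1* (-2.48), *Tnc* (-0.59) and *Pcdh19* (-0.91). Among other genes, the change was higher in the cortex for *Grm3* (0.30), *Igf1* (0.40), *Igfbp6* (2.46), *Lamp5* (0.59), *Mvd* (0.31), *Smarca2* (0.31) and *Srebf2* (0.20). It was lower there for *Agt* (-1.21), *Cyp4f17* (-0.81), *Igf2* (-1.12), *Ngfr* (-1.0), *Ntf3* (-2.23), *Oxct1* (-0.15), *Slc16a7* (-0.38) and *Slc29a4* (-2.40). With the mouse as the unit, *Cyfip2*, *Cyp4f17*, *Dlg3*, *Gabrb2*, *Gria1*, *Hcn4*, *Lamp5*, *Oxct1*, *Pdgfra*, *Scn8a* and *Slc16a7* lost the call. Under other alternatives, mostly with 1 library left out, *Arc*, *Camk2a*, *Igf1*, *Mal*, *Mvd*, *Ngfr*, *Pvalb*, *Slc12a5* and *Slc17a7* lost it as well. The explanation of these differences was not tested.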

How the results depend on the processing

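The counts of genes higher and lower stayed within 1.5 times the values given under all alternatives, from 3926 to 5227 higher and 4313 to 5835 lower. Equal totals gave the most uneven split, 4222 higher and 5835 lower, and put the median log2 fold change of all genes at -0.057. With a filter of 50 in every library fewer genes were tested, and the counts at 2-fold became 507 higher and 457 lower and those of proliferation genes 17 lower. Of 1071 list counts 40 moved by over 1.5 times, in 8 lists, of which 5 have 3 or fewer members called (choroid plexus, ependymal, granule cell, metabotropic receptor and red blood cell genes). The others are the proliferation and Wnt lists and the neuropeptides, of which 5 in place of 8 were lower in the fit of all 48 libraries. Leaving out 1 library gave 4358 to 4754 genes higher and 4570 to 4854 lower, and 7 to 12 genes of the Wnt, Notch and hedgehog list lower. Without PWK 1 replicates 2 and 3, 4436 genes were higher and 4369 lower. Of 164 called genes named, 4 lost the call under some alternative (*Cyp4f17*, *Eomes*, *Gm49450* and *Grin2b*) and none changed sign, and 9 of 17 genes not called were called under some alternative. The signs that changed were all of genes not called. With equal totals *Actl6a* was at -0.015 and *Sox10* at -0.058, and without PWK 1 replicates 2 and 3 *Slc16a3* was at -0.055. Leaving out 1 library in turn gave ranges across 0: -0.157 to 0.012 for *Gabra2*, -0.086 to 0.006 for *Kcnd2*, -0.011 to 0.342 for *Slc16a3*, -0.168 to 0.0 for *Slit2* and -0.031 to 0.023 for *Sox10*. With the median of a ratio in place of the mean, 0 of the 25 pairs were past 0.05, since several regroupings then give the same difference. With 1 library left out, 18 to 21 pairs were past 0.05, 21 without a PWK 1 library. *Bcan*/*Vcan* was lost without each PWK 7 library and *Tubb2a*/*Tubb2b* without replicate 1, 3 or 4. The overlapping ratios changed by -0.128 to 0.02 for *Nefh*/*Ina* and -0.016 to 0.057 for *Slc12a5*/*Slc12a2*.

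PWK 1 and PWK 7 mice share only a number, and their deviations correlated by 0.0128 to 0.047. The replicate block on that number gave 4765 genes higher and 4950 lower. In the cortex that block ended the call of *Cyp4f17* (adjusted p = 0.0663 from limma) and gave one to *Dlg4* (adjusted p = 0.0462), and it changed no other call of the named genes. With the mouse as the replicate block, 1550 genes had a higher and 1224 a lower change in the cortex than in the hippocampus. Of the 68 named differences between regions 20 lost the call under some alternative, 18 of them when a single library was left out. Each of the 16 libraries left out ended 7 to 15 of these calls, and 11 were lost with the mouse block and 6 with quantile normalization. The causes of these changes were not tested.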
